A study of Mus musculus with 3 samples.

Results

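The myeloid C-type lectin receptors described here are the products of 10 genes, Clec4a1, Clec4a2, Clec4a3, Clec4d, Clec4e, Clec4n, Clec5a, Clec7a, Clec10a and Clec12a, of the 22238 genes measured in all 3 libraries of the study. They were taken by name, and reads and TPM (a share of transcripts, corrected for their length, that sums to the same total in every library) were followed across the libraries. All 3 libraries came from female C57BL/6J mice (wild type by the sample titles), 10 to 12 weeks old, in which experimental autoimmune encephalomyelitis (EAE), a model of multiple sclerosis, was induced. They were immunized under the skin with a myelin oligodendrocyte glycoprotein peptide in complete Freund's adjuvant, an oil that holds killed mycobacteria. They received 250 ng of pertussis toxin in the peritoneum at 2 and 24 hours, and cells were sorted at days 14 to 15.

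BM-Mono are bone marrow monocytes, sorted as CD45+ CD11b+ Ly6Chi Ly6G- CD11c- cells and pooled from 13 mice of 2 experiments. SC-Mono are spinal cord monocytes, sorted as CD45+ CD11b+ CD64+ Ly6Chi Ly6G- cells, and SC-APC are monocyte-derived antigen-presenting cells of the spinal cord, sorted as CD64+ cells with low or no Ly6C. The title, tissue label and study design place SC-APC in the spinal cord, while its source label names the bone marrow, and the spinal cord was taken here. Each spinal cord population was pooled from 18 mice of 3 experiments. The CD64 gate was used in the spinal cord and the CD11c gate in the bone marrow. Spinal cords were digested with enzymes and run on a density gradient, while bone marrow was flushed and enriched for monocytes with a kit. Tissue, gate and preparation therefore cannot be told apart. Each population is 1 library and no mouse without EAE was sequenced, so no difference below has a replicate check, no p-value is given, and all intervals cover counting error only. The estimated reads summed to 33280643 in BM-Mono, 27283795 in SC-Mono and 28209589 in SC-APC.

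C-type lectin receptors bind sugars, lipids and debris of microbes and dying cells through a lectin-like domain. Clec7a (Dectin-1, a receptor for beta-glucan) carries a shortened form of the activating ITAM motif, whereas Clec4n (Dectin-2), Clec4e (Mincle) and Clec4d (MCL) signal through the adaptor Fcer1g, and Clec5a through Tyrobp (DAP12). These routes meet at the kinase Syk and the Card9, Bcl10 and Malt1 complex, which drives cytokine genes in myeloid cells. Clec4a2 (DCIR) and Clec12a carry inhibitory ITIM motifs that recruit phosphatases, Clec4a1 and Clec4a3 are close relatives of Clec4a2, and Clec10a (MGL1) binds galactose-type sugars.

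The 250 bases before the annotated start of 4 of these genes are shown because the genes differ in direction between BM-Mono and SC-Mono and share a short motif. They are RefSeq sequences of GRCm38.p6, written 5′ to 3′ on the strand of the gene, and capitals mark AGAGGAA or its reverse complement, the core of sites bound by the myeloid factor PU.1. Clec7a (chr6:129472780-129473029, minus strand), Clec4e (chr6:123289872-123290121, minus strand) and Clec4d (chr6:123261857-123262106, plus strand) were higher in SC-Mono, and Clec4a1 (chr6:122921598-122921847, plus strand) was lower.
Clec7a: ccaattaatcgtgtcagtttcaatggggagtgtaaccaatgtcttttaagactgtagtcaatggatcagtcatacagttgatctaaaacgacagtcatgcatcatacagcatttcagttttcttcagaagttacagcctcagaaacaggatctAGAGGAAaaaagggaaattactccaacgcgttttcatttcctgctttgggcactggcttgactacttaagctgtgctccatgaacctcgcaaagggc
Clec4e: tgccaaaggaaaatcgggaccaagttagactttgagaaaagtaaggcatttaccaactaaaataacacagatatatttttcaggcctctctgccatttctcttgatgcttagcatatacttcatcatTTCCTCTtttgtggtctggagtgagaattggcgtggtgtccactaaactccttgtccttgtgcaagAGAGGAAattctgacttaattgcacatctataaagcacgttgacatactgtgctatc
Clec4d: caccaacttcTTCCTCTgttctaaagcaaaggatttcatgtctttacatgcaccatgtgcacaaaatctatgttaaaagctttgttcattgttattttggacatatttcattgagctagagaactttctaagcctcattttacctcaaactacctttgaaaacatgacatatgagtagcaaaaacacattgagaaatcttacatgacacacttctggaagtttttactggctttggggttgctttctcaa
Clec4a1: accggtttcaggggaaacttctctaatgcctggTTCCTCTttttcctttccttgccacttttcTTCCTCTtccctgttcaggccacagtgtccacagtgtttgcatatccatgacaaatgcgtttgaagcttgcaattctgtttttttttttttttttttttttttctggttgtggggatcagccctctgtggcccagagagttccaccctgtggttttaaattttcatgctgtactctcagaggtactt

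Promoter entries were found for 8 of the 10 genes. Searched on both strands from 250 bases before to 50 after the start, AGAGGAA was present in 10.4% of 32851 RefSeq promoters and in 7 of the 8 genes, Clec7a, Clec4e, Clec4d, Clec5a, Clec4a1, Clec4a3 and Clec12a. Clec4a2 held no match. The percentages count promoter entries, while a gene counted where any of its entries matched. Clec7a and Clec4a3 have more than a single entry, and an entry of Clec4a3 held no match. The longer PU.1 motif GAGGAAGT, found in 3.20% of promoters, was in 0 of the 8. The motif was therefore found in genes that were higher, lower and little different in SC-Mono. TGTGGT, a RUNX motif found in 16.8% of promoters, was present in 5 of the 8, Clec4e, Clec5a, Clec4a1, Clec4a3 and Clec12a. TTGCNNAA, a C/EBP motif found in 10.8% of promoters, was present in Clec4e and Clec12a. The NF-kappa B motif, found in 8.46%, was in none of the 8. These matches describe letters in a window and not bound sites.

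The sorted populations were first checked by the genes of monocytes and of other cells. All 8 monocyte genes (Ly6c2, Ccr2, Fcgr1, Csf1r, Itgam, Ptprc, Plac8 and Cd44) were above 3 TPM in every library. Together they held 11135 TPM in BM-Mono, 9631 in SC-Mono and 3948 in SC-APC. Ly6c2, a gene of the gated Ly6C antigen, held 5205, 3602 and 1067 TPM of these. Csf1r alone was higher in each step, at 374, 676 and 1134 TPM. From SC-Mono to SC-APC its log2 fold change was 0.17 on reads and 0.83 on reads corrected for effective length. Of 11 neutrophil genes, 7, 10 and 10 were above 3 TPM, and they summed to 7861, 1344 and 1456 TPM. The most abundant of them in each library was S100a8 (4471, 678 and 498 TPM), which monocytes also express. A gene counted as called where the 98% interval of its fold change, from the reads of the 2 libraries compared, lay beyond a 2-fold change and its TPM was over 3 in at least 1 of them. By this rule, 13.8% of all genes tested were called higher and 10.7% lower from BM-Mono to SC-Mono. Between SC-Mono and SC-APC, 1.93% were called higher and 1.70% lower. Of the 11 neutrophil genes, 6 were called lower and 3 higher from BM-Mono to SC-Mono. Those 3 were Cxcr2, Retnlg and Stfa2l1, which passed the TPM threshold through SC-Mono only. From SC-Mono to SC-APC, 3 were called higher and 0 lower, with Ngp, a granule protein, at 24.3 and 157 TPM, Ltf (lactoferrin) at 9.76 and 34.1 TPM, and Retnlg at 16.7 and 57.9 TPM. Ly6g, the neutrophil antigen gated out, had 38, 22 and 24 reads. The 4 genes of granulocyte progenitors summed to 630.3, 62.5 and 22.9 TPM, led by Prtn3.

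Genes of microglia and of T cells were higher in the spinal cord libraries. The 8 microglia genes summed to 13.001, 111 and 286 TPM, led by P2ry12 (10.1, 36.0 and 85.6 TPM), and Sall1 and Slc2a5 had 0 reads in BM-Mono. In BM-Mono, P2ry12 alone was over 3 TPM, and it was called higher in SC-Mono, beside 13.8% of all genes tested. Another 6 were also called higher but passed the threshold through SC-Mono only and so had to differ. From SC-Mono to SC-APC, 6 of the 7 genes over 3 TPM in SC-Mono were called higher, beside 1.93% of all genes tested. A further 1 passed through SC-APC only. The 6 T cell genes summed to 0.417, 48.3 and 72.9 TPM, led by Trac, which had 0 reads in BM-Mono and reached 29.1 TPM in SC-APC. The 7 genes of conventional dendritic cells summed to 41.2, 22.4 and 35.4 TPM, of which Flt3, also a gene of bone marrow progenitors, held 37.8 TPM in BM-Mono and 6.64 TPM in SC-APC. From SC-Mono to SC-APC, 3 of the 7 were called higher (Zbtb46, Itgae and Cd209a, each through SC-APC only) and 0 lower, and Clec9a was at 0.108, 4.38 and 7.40 TPM. Against BM-Mono, 4 were called higher in SC-APC, all through SC-APC only, and 1 lower, Flt3, beside 14.0% and 11.8% of all genes tested. Genes of macrophages at the borders of the nervous system summed to 15.7, 36.8 and 51.1 TPM. Of these, Siglec1 was at 22.1 TPM in SC-Mono and 18.3 TPM in SC-APC, and Mrc1 at 6.59 and 17.9 TPM. Those of NK cells summed to 0.193, 2.24 and 16.0 TPM, and Klrd1 alone held 15.5 TPM in SC-APC. B cell genes summed to under 1 TPM in each library, and oligodendrocyte genes to 73.1, 48.1 and 45.8 TPM, most of it Mbp. The part of these cells in the results below was not tested. In bulk RNA, fewer cells of a type and less RNA per cell cannot be told apart.

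All 10 receptors were above 3 TPM in every library. Their summed level was 2009.6 TPM in BM-Mono, 5324 TPM in SC-Mono and 4707 TPM in SC-APC, and without Clec7a it was 1514, 2546 and 1895 TPM. In TPM as deposited, SC-Mono (4542) was below SC-APC (4707). The composition differed more than the sum. Clec4d, Clec4e, Clec4n, Clec5a and Clec7a, the activating receptors, held 39.0% of the summed level in BM-Mono, 91.4% in SC-Mono and 93.6% in SC-APC. Clec4a1, Clec4a2 and Clec4a3 held 48.6%, 4.67% and 3.51%. The ratio of the first group to the second was 0.802 in BM-Mono, 19.6 in SC-Mono and 26.7 in SC-APC.

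**Figure D1:**
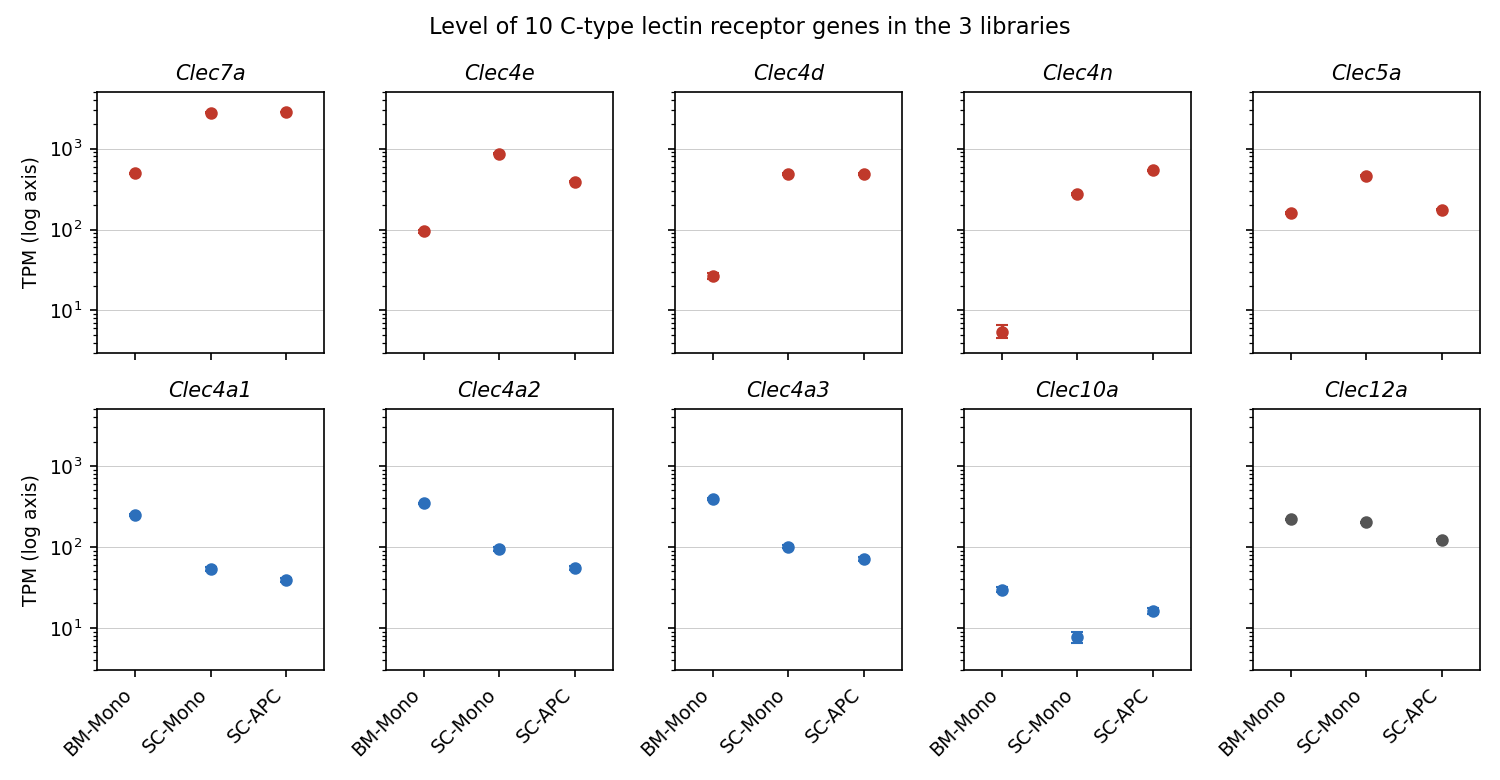
TPM (log axis) of each of the 10 genes in BM-Mono, SC-Mono and SC-APC, 1 point per library with its 95% Wilson interval of counting error, often smaller than the point; red, blue and grey mark genes called higher, lower or not called in SC-Mono against BM-Mono. The 5 activating receptors of the upper row lie higher in both spinal cord libraries than in BM-Mono (Clec4n 5.48, 271 and 539 TPM), and Clec4a1, Clec4a2 and Clec4a3 lie lower.

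In SC-Mono against BM-Mono, 5 of the 10 receptors were called higher (Clec4d, Clec4e, Clec4n, Clec5a and Clec7a), 4 were called lower (Clec4a1, Clec4a2, Clec4a3 and Clec10a) and Clec12a was not called. Of 10072 genes tested, 24.4% were called, 13.8% higher and 10.7% lower. The median log2 fold change of the 10 receptors was 0.93, beside -0.15 over all genes tested. When libraries were assumed to vary with a coefficient of variation of 0.2, 4 receptors were called higher and 0 lower, and with 0.4 only Clec4d, Clec4e and Clec4n were still called higher.

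Clec4n (ENSMUSG00000023349.14, chr6:123229843-123247021), the receptor for fungal mannans, had 110 reads in BM-Mono, 4564 in SC-Mono and 10762 in SC-APC. By TPM it was the lowest of the 10 genes in bone marrow and the second highest in SC-APC. The level was 5.48 TPM (95% interval 4.55 to 6.61) in BM-Mono, 271 TPM (263 to 279) in SC-Mono and 539 TPM (529 to 550) in SC-APC. The log2 fold change was 5.85 (98% interval 5.54 to 6.18) from BM-Mono to SC-Mono, a 57.6-fold difference and the largest among the 10.

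Clec4d (ENSMUSG00000030144.4, chr6:123262111-123275265) encodes MCL, which forms complexes with Mincle at the cell surface. It had 486 reads in BM-Mono, 7372 in SC-Mono and 8245 in SC-APC, or 26.8, 486 and 486 TPM. Between the spinal cord libraries its log2 difference on reads was 0.00 (98% interval -0.05 to 0.06), and corrected for effective length 0.08 (0.03 to 0.14), both far under the 2-fold bound. From BM-Mono to SC-Mono the log2 fold change was 4.40 (98% interval 4.25 to 4.56), or 21.2-fold.

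Clec4e (ENSMUSG00000030142.10, chr6:123281789-123289870) encodes Mincle, a receptor for mycobacterial cord factor. Its reads were 2664 in BM-Mono, 20667 in SC-Mono and 12045 in SC-APC. The level was 94.9, 869 and 391.5 TPM, highest in SC-Mono, where Clec4e was the second most abundant of the receptors. The log2 fold change from BM-Mono to SC-Mono was 3.44 (98% interval 3.37 to 3.51), or 10.8-fold.

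Clec7a (ENSMUSG00000079293.11, chr6:129461591-129472779), which GENCODE M21 annotates as a polymorphic pseudogene, was the most abundant receptor in every library. It had 14127 reads in BM-Mono, 67277 in SC-Mono and 81879 in SC-APC, or 496 TPM (95% interval 488 to 504), 2778 TPM (2757 to 2799) and 2812 TPM (2793 to 2832). Both spinal cord libraries were far above bone marrow, and Clec7a moved from rank 301 to ranks 44 and 41 among all genes by TPM. Its log2 fold change from BM-Mono to SC-Mono was 2.73 (98% interval 2.70 to 2.76), or 6.65-fold. Alone it held 24.7%, 52.2% and 59.7% of the summed level of the 10 receptors.

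Clec5a (ENSMUSG00000029915.14, chr6:40574894-40585821), a receptor for flaviviruses, showed the smallest rise of the 5. It had 4400 reads in BM-Mono, 10644 in SC-Mono and 7960 in SC-APC, and 160.8, 463 and 176 TPM. By TPM it was higher in SC-Mono than in the other libraries. The log2 fold change from BM-Mono to SC-Mono was 1.76 (98% interval 1.70 to 1.82), or 3.38-fold.

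The genes of DCIR and its relatives were lower in both spinal cord libraries, each by a similar factor. Clec4a1 (ENSMUSG00000049037.8, chr6:122921848-122934619) had 6854 reads in BM-Mono, 1329 in SC-Mono and 1066 in SC-APC, or 247, 53.5 and 39.1 TPM. Its log2 fold change from BM-Mono to SC-Mono was -1.88 (98% interval -1.99 to -1.78). Clec4a2 (ENSMUSG00000030148.15, chr6:123106428-123143999), the DCIR gene itself, had 6333, 1348 and 1014 reads and 343, 94.5 and 55.3 TPM in the same order. This gave a log2 fold change of -1.75 (98% interval -1.85 to -1.65). Clec4a3 (ENSMUSG00000043832.13, chr6:122952515-122969875) had 7378, 1740 and 1325 reads and 387, 101 and 70.6 TPM. On reads this came to -1.60 (98% interval -1.69 to -1.51), overlapping the interval of Clec4a2, and corrected for effective length the order of these 2 turned (-1.62 for Clec4a2 and -1.70 for Clec4a3). On reads the 3 genes were thus 3.69-fold, 3.36-fold and 3.04-fold lower in SC-Mono than in BM-Mono. In BM-Mono they stood directly below Clec7a in level, and in SC-Mono they stood below all 5 activating receptors and Clec12a.

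Clec10a (ENSMUSG00000000318.16, chr11:70156197-70170834), the only one of the genes not on chromosome 6, had the fewest reads in the spinal cord libraries. It had 801 reads in BM-Mono, 181 in SC-Mono and 436 in SC-APC. The level was 29.7 TPM (95% interval 27.7 to 31.8), 7.60 TPM (6.57 to 8.79) and 16.1 TPM (14.7 to 17.7), lowest in SC-Mono. The log2 fold change from BM-Mono to SC-Mono was -1.66 (98% interval -1.94 to -1.39), or 3.16-fold lower.

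Clec12a (ENSMUSG00000053063.11, chr6:129342691-129365303), a receptor for uric acid crystals that restrains myeloid activation, differed least in this step. It had 9748 reads in BM-Mono, 7526 in SC-Mono and 5388 in SC-APC, or 219, 201 and 120.3 TPM. Its log2 fold change from BM-Mono to SC-Mono was 0.11 (98% interval 0.06 to 0.16), and scaled by total reads it was -0.07, so its direction depends on the scaling.

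**Figure D2:**
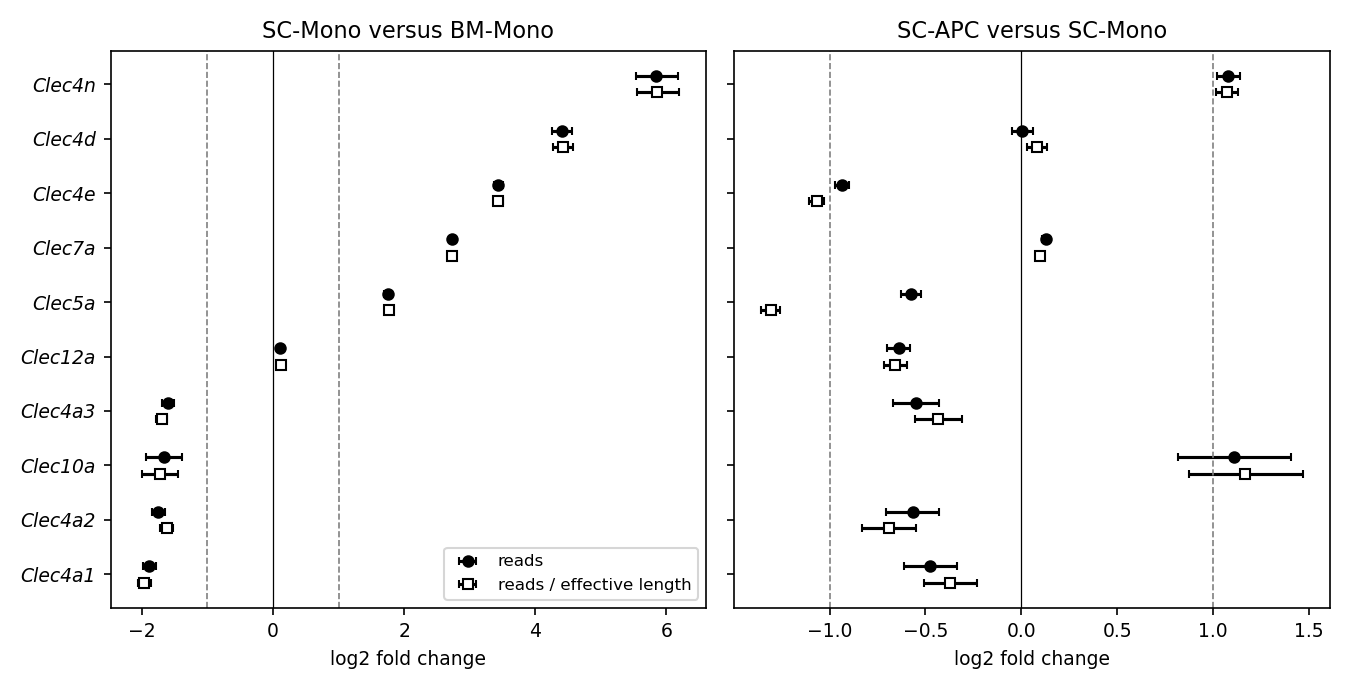
Log2 fold change of each receptor gene from BM-Mono to SC-Mono (left) and from SC-Mono to SC-APC (right), with 98% intervals of counting error; filled circles use reads, open squares reads divided by effective length, and dashed lines mark a 2-fold change. The left panel spans Clec4a1 at -1.88 to Clec4n at 5.85, while on the right the 2 measures part for Clec5a (-0.58 and -1.31).

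From spinal cord monocytes to SC-APC, Clec4n was the single receptor called, with 1 of 10 higher and 0 lower. Of 9734 genes tested, 3.63% were called, 1.93% higher and 1.70% lower. These were 188 genes higher and 165 lower, a split that turned to 232 and 320 when reads were corrected for effective length. The median log2 fold change was -0.51 over the 10 receptors and -0.04 over all genes tested. Clec4n was 2.12-fold higher, and the 98% interval of its log2 fold change (1.08) was 1.02 to 1.14, which starts just past the 2-fold bound. With an assumed coefficient of variation of 0.2, no receptor was called in this step.

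Most other receptors were lower in SC-APC than in SC-Mono by less than the 2-fold bound. Clec4a1, Clec4a2 and Clec4a3 had log2 fold changes of -0.47, -0.57 and -0.55, and Clec12a of -0.64 (98% interval -0.70 to -0.58). Clec7a (0.13) and Clec4d (0.00) stood near 0. Clec10a, at 1.11 (98% interval 0.82 to 1.41), had a median past a 2-fold change and an interval that was not.

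The calls of Clec4e and Clec5a in this step depended on how length was treated. SC-APC values cover fewer genes than those of the monocyte libraries, and whether another transcript set or other isoforms set the effective lengths was not tested. The effective length of Clec5a was 1281 bases in BM-Mono, 1187 in SC-Mono and 2165 in SC-APC, and that of Clec4e was 1314, 1227 and 1476 bases. On reads, the log2 fold change of Clec5a from SC-Mono to SC-APC was -0.58 (98% interval -0.63 to -0.53). Corrected for effective length, the reads gave -1.31 (98% interval -1.36 to -1.26), which would be called lower. Clec4e changed its call in the same way, from -0.94 (98% interval -0.97 to -0.90) to -1.07 (-1.11 to -1.03).

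**Figure D3:**
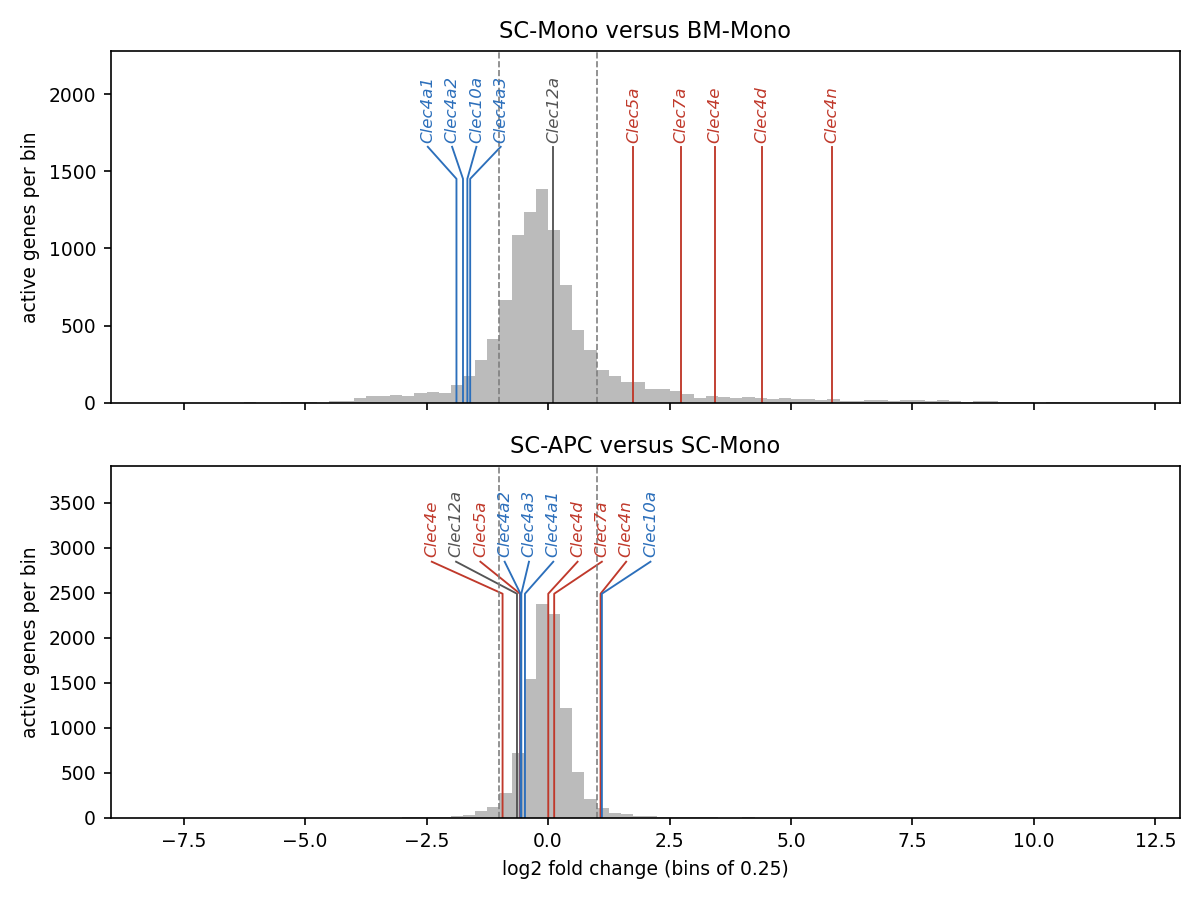
Number of active genes (over 3 TPM in at least 1 of the 2 libraries) per bin of log2 fold change, from BM-Mono to SC-Mono (top, 10072 genes) and from SC-Mono to SC-APC (bottom, 9734 genes), with a line at each receptor in the colors of the plot of TPM; dashed lines mark a 2-fold change. The receptors lie on both sides of the top distribution, from -1.88 to 5.85, and between -0.94 and 1.11 in the bottom one.

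SC-APC and BM-Mono share their libraries with the comparisons above, so their comparison adds no separate evidence. The 5 activating receptors were higher in SC-APC, Clec4a1, Clec4a2 and Clec4a3 were lower, and Clec10a and Clec12a were not called. Of 10190 genes tested, 25.8% were called, 14.0% higher and 11.8% lower. Clec4n was 122-fold higher, or 6.93 (98% interval 6.62 to 7.26) as a log2 fold change. Among the 10, Clec4a1 had the lowest value, -2.36 (98% interval -2.47 to -2.25), overlapping the interval of Clec4a2 at -2.32 (-2.43 to -2.20). Clec5a, at 1.18 (98% interval 1.12 to 1.24) on reads, lost its call at 0.46 (0.40 to 0.52) once the reads were corrected for effective length, and also under total reads (1.04) and with an assumed coefficient of variation of 0.2. With 0.4, Clec4d and Clec4n were still called higher and 0 receptors lower.

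The order of the receptors by TPM differed between bone marrow and spinal cord. In BM-Mono it ran Clec7a, Clec4a3, Clec4a2, Clec4a1, Clec12a, Clec5a, Clec4e, Clec10a, Clec4d and Clec4n, and the 95% intervals of Clec10a and Clec4d overlapped. In SC-Mono it ran Clec7a, Clec4e, Clec4d, Clec5a, Clec4n, Clec12a, Clec4a3, Clec4a2, Clec4a1 and Clec10a, with overlapping intervals of Clec4a3 and Clec4a2. In SC-APC, Clec4n moved up to the place behind Clec7a, followed by Clec4d, Clec4e, Clec5a, Clec12a, Clec4a3, Clec4a2, Clec4a1 and Clec10a, and no neighbours overlapped.

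Of the 10 genes, 6 lie in 1 stretch of 368 kb on chromosome 6 of GRCm38, from Clec4a1 to Clec4e, with Clec4a4, Clec4b1 and Clec4b2 between them. Along it, Clec4a1, Clec4a3, Clec4a4, Clec4b1, Clec4a2 and Clec4b2 came first, with negative log2 fold changes from BM-Mono to SC-Mono. The median over all genes tested was also negative, at -0.15. Clec4n, Clec4d and Clec4e followed at the other end, all called higher. Of all genes tested, 13.8% were called higher and 10.7% lower in this step. Clec4b1, a DCAR-type receptor that couples to Fcer1g, had 107 reads in BM-Mono, 5 in SC-Mono and 4 in SC-APC, and was called lower at -3.77 (98% interval -5.46 to -2.51). Clec4a4 (24, 11 and 9 reads) and Clec4b2 (26, 5 and 0 reads) were below 3 TPM in every library and were not called. From BM-Mono to SC-Mono, Clec4a4 was at -0.60 (98% interval -1.86 to 0.55), which holds 0.

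**Figure D4:**
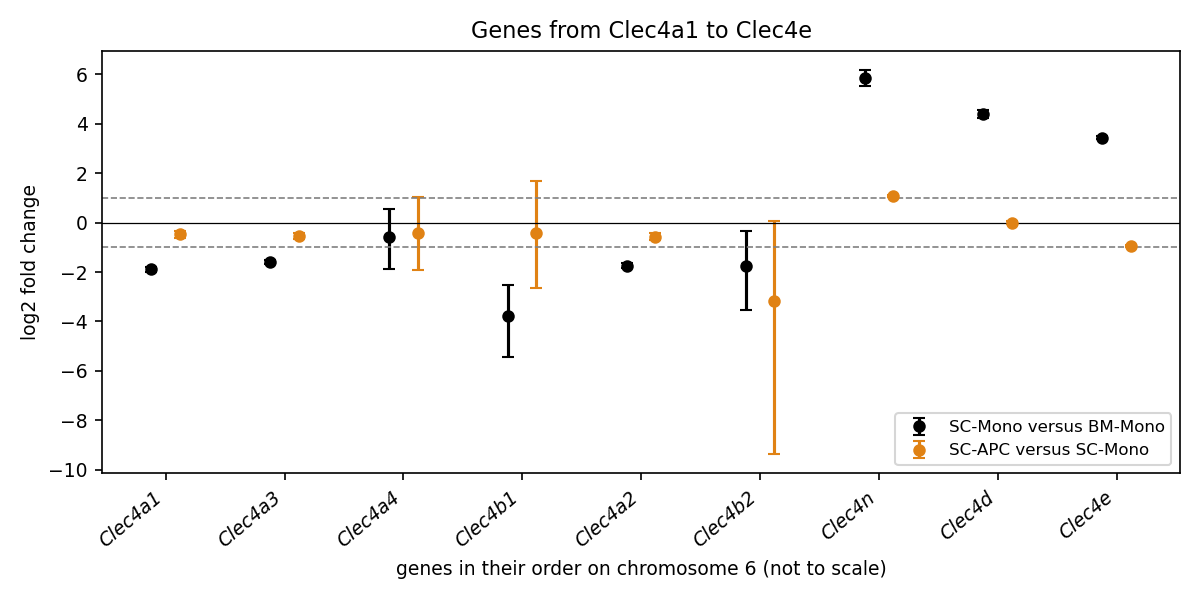
Log2 fold changes with 98% intervals of counting error for the 9 genes from Clec4a1 to Clec4e that all libraries list, in their order on chromosome 6 (spacing not to scale), from BM-Mono to SC-Mono in black and from SC-Mono to SC-APC in orange. Black points of the first 6 genes lie below 0 and those of Clec4n, Clec4d and Clec4e between 3.44 and 5.85. The black interval of Clec4a4 (-1.86 to 0.55) holds 0.

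Clec12a and Clec7a bound a second stretch of 130 kb on chromosome 6, which also holds Clec12b, Clec1b, Clec9a and Clec1a. Clec12b had 0 reads in all 3 libraries. Clec1b (31, 92 and 214 reads), known from platelets as a podoplanin receptor, and Clec9a (7, 118 and 211 reads), which binds the actin of dead cells, were called higher in SC-Mono than in BM-Mono, both at low levels. Beyond Clec7a, the next gene is Olr1, which was called higher in SC-Mono, from 4.44 to 141 TPM. On the side of Clec12a, 4922502D21Rik had 0 reads in all 3 libraries, and Cd69, past it, was called higher, from 4.26 to 197 TPM.

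Some of the receptor genes share sequence with relatives, and their reads may be split between them. Over GENCODE M21 transcripts, 9.02% of the 50-base stretches of Clec10a, and 6.83% of those of Clec4a2, also occur in another gene, mainly Mgl2 and Clec4a4 respectively. For Clec4n and Clec12a the share was 0.686% and 0.457%, and for the other 6 genes it was 0. Over stretches of 31 bases the shares were higher, at 14.8% for Clec10a, 10.9% for Clec4a2, 1.96% for Clec4n and 1.10% for Clec12a. Clec4a3 (2.19%), Clec7a (0.638%) and Clec4e (0.0992%) were then above 0. Clec4a2 also overlaps the pseudogene Gm44132, which had 0 reads in both monocyte libraries. Mgl2, the gene next in kind to Clec10a, had 29 reads in BM-Mono, 21 in SC-Mono and 579 in SC-APC, or 1.06, 0.818 and 20.7 TPM. Unlike Clec10a, Mgl2 was called higher in SC-APC than in SC-Mono, by 4.59 (98% interval 3.90 to 5.38) on the log2 scale.

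Of 15 adaptors, kinases and complex members that the activating receptors use, 14 were over 3 TPM in BM-Mono, all but Src, and 15 in each spinal cord library. From BM-Mono to SC-Mono, 2 of 15 were called higher (Src and Malt1) and 0 lower, beside 13.8% and 10.7% of all genes tested. The median log2 fold change was 0.12, and -0.15 over all genes tested. Plcg2, the phospholipase downstream of Syk, was at 182, 73.4 and 78.3 TPM, and its -0.98 (98% interval -1.03 to -0.92) on reads became a lower call at -1.07 (-1.12 to -1.02) when corrected for effective length. Src passed the TPM threshold through SC-Mono only. From SC-Mono to SC-APC, 0 of 15 were called, beside 3.63% of all genes tested. The median was -0.43, and -0.04 over all genes tested. Fcer1g, the partner of Clec4n, Clec4e and Clec4d, stood at 1396, 1728 and 2044 TPM in BM-Mono, SC-Mono and SC-APC. The log2 fold changes of Fcer1g in the 2 steps, 0.60 and 0.27, were under the 2-fold bound. Tyrobp, the partner of Clec5a, stood at 3077, 2597 and 1675 TPM.

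Syk, the kinase that binds the phosphorylated ITAM, was nearly level at 149.98, 136 and 132 TPM. Src, of the kinase family that phosphorylates these motifs, had 18, 2181 and 3504 reads, or 0.253, 35.8 and 47.4 TPM. From BM-Mono to SC-Mono its log2 fold change was 7.35 (98% interval 6.63 to 8.20). Of the same kinase family, Lyn (361, 230 and 142 TPM) and Fgr (207, 149 and 101 TPM) were not called in that step. In SC-APC against BM-Mono, Lyn was called lower at -1.05 (98% interval -1.09 to -1.01), a call that is lost at -1.02 (-1.06 to -0.98) once corrected for effective length. Vav3, an exchange factor at 29.3, 12.5 and 8.22 TPM, was called lower in the same comparison.

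Of the 3 genes of the Card9 complex, Malt1 was the one called on reads. Malt1, the protease of the complex, was at 44.3, 194 and 133 TPM, and was called higher in SC-Mono at 2.12 (98% interval 2.07 to 2.18). Card9 itself was at 98.5, 55.8 and 34.5 TPM. Its log2 fold change from BM-Mono to SC-Mono, -0.58 (98% interval -0.69 to -0.46), was under the bound. Corrected for effective length, Card9 was called lower in SC-APC against BM-Mono, at -1.19 (98% interval -1.31 to -1.07). Bcl10 was at 101, 113 and 60.4 TPM. None of the phosphatases that ITIM receptors recruit was called in any comparison. Over all genes tested, 24.4% were called in SC-Mono against BM-Mono, 3.63% in SC-APC against SC-Mono and 25.8% in SC-APC against BM-Mono. Ptpn6 (SHP-1) was at 483, 258 and 310 TPM, Ptpn11 at 36.2, 24.0 and 20.5 TPM and Inpp5d at 122, 117 and 93.6 TPM.

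**Figure D5:**
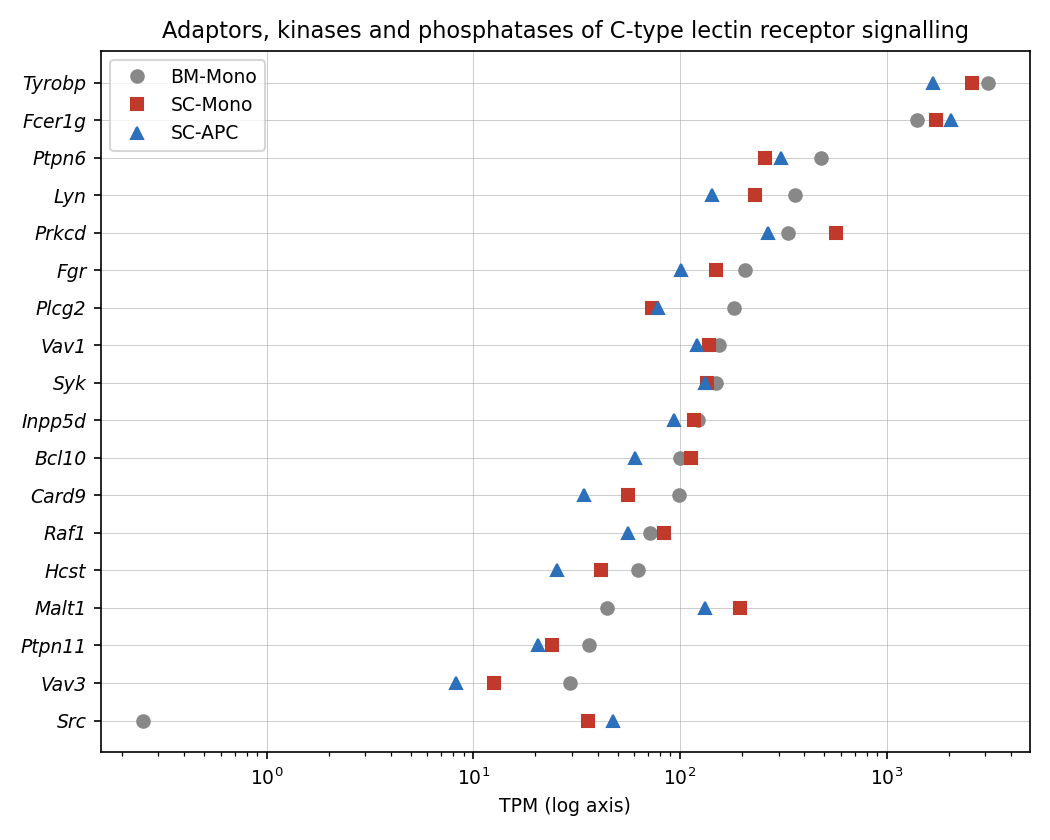
TPM (log axis) of 15 adaptors, kinases and complex members and of the phosphatases Ptpn6, Ptpn11 and Inpp5d, ordered by level in BM-Mono; grey circles are BM-Mono, red squares SC-Mono and blue triangles SC-APC, 1 library each. Src moves from 0.253 TPM to 35.8 and 47.4 TPM and Malt1 from 44.3 to 194 and 133 TPM. Vav3 (29.3, 12.5 and 8.22 TPM) and Card9 (98.5, 55.8 and 34.5 TPM) lie lower in each step, and Syk (149.98, 136 and 132 TPM) is nearly level.

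Among 4 host proteins reported as ligands of Clec7a, Lgals9 was called higher in SC-Mono than in BM-Mono and Anxa1 lower. Of all genes tested, 24.4% were called in that step. From SC-Mono to SC-APC, 0 of the 4 were called, beside 3.63% of all genes tested. Lgals9, which encodes galectin-9, was at 124, 239 and 209 TPM. Between BM-Mono and SC-Mono this was a log2 difference of 1.25 (98% interval 1.18 to 1.33). Anxa1, an annexin exposed on dying cells, was at 776, 163 and 98.0 TPM, with -1.96 (98% interval -2.03 to -1.90). Vim, the most abundant of the 4, was at 2274, 2432 and 1259 TPM and was not called.

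Of 12 cytokine, chemokine and effector genes known to be induced through Card9, 4 were over 3 TPM in BM-Mono. All 4 were called higher in SC-Mono, beside 13.8% of all genes tested. Il1b, by TPM the most abundant of the 12 in both spinal cord libraries, had 139 reads in BM-Mono, 76494 in SC-Mono and 66848 in SC-APC. Cxcl2, a neutrophil chemokine, had 735, 54727 and 49877 reads, Tnf had 338, 10109 and 8136 reads, and Ccl3, by TPM the most abundant in BM-Mono, had 1577, 10888 and 12963 reads. These genes are induced by many other pathways as well, and a link to the receptors was not tested. Il6, Il10, Il23a, Cxcl1 and Nos2 were also called higher, but they passed the TPM threshold through SC-Mono only and so had to differ. Nos2, which makes nitric oxide, had 8, 20683 and 20867 reads. From SC-Mono to SC-APC, 0 of the 9 genes over 3 TPM in SC-Mono were called, beside 3.63% of all genes tested. Il12b, the shared subunit of IL-12 and IL-23, passed through SC-APC only and was called higher, with 0 reads in BM-Mono, 29 in SC-Mono and 427 in SC-APC.

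Of 29 further genes of the C-type lectin superfamily, 7 were over 3 TPM in BM-Mono. Of these, 2 were called higher in SC-Mono (Cd69 and Olr1) and 1 lower (Clec4b1), beside 13.8% and 10.7% of all genes tested. Cd72, Clec1b, Clec9a, Klrb1b and Mrc1 were also called higher but passed the threshold through SC-Mono only. From SC-Mono to SC-APC, 4 of the 12 genes over 3 TPM in SC-Mono were called higher (Cd72, Klrb1b, Ly75 and Mrc1) and 0 lower. Of all genes tested, 1.93% were called higher and 1.70% lower in this step. Cd209a and Mgl2, which passed through SC-APC only, were called higher as well. Klrb1b, an inhibitory receptor for Clec2d, had 1, 329 and 2235 reads, or 0.0710, 14.7 and 99.99 TPM, and its ligand gene Clec2d stood at 57.7, 58.8 and 37.4 TPM. Mrc1, the mannose receptor and a marker of border macrophages, was at 1.45, 6.59 and 17.9 TPM. The most abundant of the 29 in every library was Klra2, at 222, 254 and 147 TPM, below Clec7a in each.

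By pattern, the genes nearest to Clec7a were Adgrl2, Chil1 and Cysltr2, with distances of 0.01, 0.12 and 0.12 between the pairs of log2 fold changes, among 10297 genes over 3 libraries. Their levels were far lower than that of Clec7a. Adgrl2 was at 0.566, 4.05 and 4.17 TPM, Chil1 at 1.02, 6.76 and 7.57 TPM and Cysltr2 at 0.426, 3.32 and 1.76 TPM. The distances use reads not corrected for length, and by TPM Cysltr2, unlike Clec7a, was lower in SC-APC than in SC-Mono.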

How the data were processed

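RNA of 3 sorted populations, 1 pooled library each, was sequenced as 50-base read pairs. Per the submitters' processing notes and the methods of the study, the authors estimated expression with Salmon 0.14.1 on mouse transcripts (mm10, GENCODE vM22), pooling the transcripts of a gene. The deposited estimated counts of reads are not normalized. The deposited TPM are corrected, by the authors' tool, for effective length and for depth. The values list 54432 genes for each monocyte library and 22242 for SC-APC, so the transcript sets may differ, which was not tested.

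The 22238 genes common to all libraries were used. Within each library their TPM were rescaled to 1 common total, since they held 84.9% of the TPM of BM-Mono and 85.3% of that of SC-Mono. Reads were rounded to whole numbers, and median-of-ratios size factors (1.21, 0.864 and 0.963) scaled the libraries. After the definition that the study used with GFold, computed anew, a log2 fold change is the median of the ratio of 2 gamma distributions of reads plus 1, with an interval between percentiles 1 and 99. The procedure was tested on simulated data. The level of a gene carries a 95% Wilson interval, from its share of the reads. PCR copies are not independent molecules, so all intervals cover counting error only. None of the 10 receptor genes chosen was at or under the floor of 3 reads.

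The receptors and gene lists were chosen with earlier results of these data known, and 1 gene of the lists is not reported here. Sap130 was dropped from the ligands, since the ligand of that name is the product of another gene. All 10 receptors are named, from the lists abundant and called genes (not every called gene), and the 3 genes nearest in pattern (Euclidean distance of both log2 fold changes) to the receptor highest in each library, which was Clec7a in all. GENCODE M21 (GRCm38) gave symbols and coordinates, and 22221 of the genes had a match there. Promoters came from RefSeq GRCm38.p6. The 14 motifs, chosen after the levels had been seen, were AGAGGAA and GAGGAAGT (PU.1), TTGCNNAA (C/EBP), TGANTCA (AP-1), GGGANTTCC and a wider motif (NF-kappa B), the interferon element ISRE, TTCNNNGAA and TTCCNNGAA (STAT), ACGTG (HRE), CACGTG (E-box), GGGTG (KLF), TGACGTCA (CRE) and TGTGGT (RUNX), of which pairs for the same factor, and HRE and E-box, overlap.

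Alternatives were total reads or TMM factors, reads divided by effective length, a TPM threshold of 4 or none, 0.5 reads added, a bound at 0.001, a plain 2-fold change, an assumed coefficient of variation of 0.2 or 0.4 between libraries, all genes of the monocyte libraries, and TPM as deposited. The software was Python 3.11.15 with pandas 2.3.3, numpy 2.4.6, scipy 1.17.1 and matplotlib 3.10.9. TMM factors came from edgeR 4.0.16 in R 4.3.3.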

Additional observations from a re-analysis of the deposited data

How the results depend on the processing

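No fold change of a receptor that was called changed sign under any alternative. The settings of TPM threshold, bound and plain 2-fold change leave the fold change as it is, and an assumed variation nearly so. They could therefore not turn a sign. Single receptor fold changes kept their side of the threshold in 99 of the 110 cases from BM-Mono to SC-Mono, 95 of 100 from SC-Mono to SC-APC and 91 of 100 from BM-Mono to SC-APC. These cases include a TPM threshold of 4 or none, which could not change a receptor call. The lowest receptor level in any library was 5.48 TPM. With an assumed coefficient of variation of 0.4, receptors called higher in SC-Mono against BM-Mono numbered 3 in place of 5, and those called lower 0 in place of 4 (also 0 with 0.2). In SC-APC against SC-Mono, a plain 2-fold change gave 2 higher in place of 1 (Clec10a added), a coefficient of 0.2 or 0.4 gave 0, and reads divided by effective length gave 2 lower in place of 0 (Clec4e and Clec5a). In SC-APC against BM-Mono, a coefficient of 0.4 gave 2 higher in place of 5 (Clec4d and Clec4n) and 0 lower in place of 3. Clec5a lost its call there under total reads, effective length and 0.2.

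TPM as deposited summed over the receptors to 1707 in BM-Mono, 4542 in SC-Mono and 4707 in SC-APC, in place of 2009.6, 5324 and 4707, so SC-Mono was below SC-APC as deposited and above it once rescaled. Scaling by total reads moved the median of all genes by -0.18 from BM-Mono to SC-Mono and by -0.14 from BM-Mono to SC-APC on the log2 scale.

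Calls over all genes, 1386 higher and 1073 lower from BM-Mono to SC-Mono, were 1239 and 1394 under total reads, 2623 and 1178 with no TPM threshold, 909 and 446 with 0.2, 611 and 208 with 0.4, and 1371 and 1587 over all genes of the monocyte libraries. From SC-Mono to SC-APC, 188 and 165 became 232 and 320 on effective length, 385 and 292 with no threshold, 326 and 302 with a plain 2-fold change, 83 and 35 with 0.2, and 40 and 13 with 0.4. From BM-Mono to SC-APC, 1426 and 1199 became 1312 and 1448 under total reads, 2870 and 1333 with no threshold, 969 and 488 with 0.2, and 707 and 210 with 0.4. Depth limits Clec4n in BM-Mono (110 reads) and Clec10a in SC-Mono (181 reads) most. No paired analysis was possible because each group is 1 library.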

Other observations

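The genes beside the stretch from Clec4a1 to Clec4e were looked at after their values had been seen. On the side of Clec4a1, C3ar1, the receptor for the complement fragment C3a, had 1.37 TPM in BM-Mono, 108 TPM in SC-Mono and 109 TPM in SC-APC. Its log2 fold change from BM-Mono to SC-Mono was 6.62 (98% interval 6.32 to 6.94). Necap1, an endocytosis gene between C3ar1 and Clec4a1, was at 19.6, 44.0 and 16.9 TPM, and was called higher in SC-Mono than in BM-Mono (1.37) and lower in SC-APC than in SC-Mono (-1.15, 98% interval -1.30 to -1.01).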
